A study of Mus musculus with 25 samples.

Results

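The 10 genes described here, Gfap, Vim, Nes, Cd44, Serpina3n, Lcn2, S1pr3, Cd109, Emp1 and Steap4, mark the reactive state of astrocytes by their filaments, surface proteins and secreted products. They were chosen by name, with earlier results of these data known. The 10 are among the 24421 gene symbols in the count files, and 9 of them had enough counts to be tested, with Lcn2 below the low-count filter. They were measured by RNA sequencing of pooled mouse hippocampi, 25 libraries in 9 groups, at postnatal day 14 (P14) or 24 (P24). The tested animals were Scn1a+/-, with 1 disrupted copy of the gene for a neuronal sodium channel subunit, which models Dravet syndrome, and were set against wild type. P24 F1 animals ([129S6/SvEvTac x C57BL/6]F1) gave 3 libraries of Scn1a+/- mice with seizures, 2 of Scn1a+/- mice without seizures and 3 of wild-type mice. P24 129S6/SvEvTac animals (129S6) gave 3 libraries labelled Scn1a+/- and 3 labelled wild type. P14 F1 animals gave 3 Scn1a+/- and 3 wild-type libraries, and P14 129S6 animals gave 3 and 2. No animal outside the seizure group was labelled as having seizures. Each seizure library pooled 3 to 4 mice and every other library 12 to 16, so pool size and seizures cannot be told apart. Whether pools of the same group came from separate litters or dissections is not given, so p-values measure only how far these pools varied. The test estimated 1 spread per gene over all groups, so it assumed that the smaller seizure pools varied like the larger ones. A standard error can be too small where the seizure pools varied more. In comparisons without the seizure libraries, it can then be too large. With those libraries out of the fit, more genes were called for genotype in P24 F1 and for strain.

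Astrocytes answer injury, seizures and inflammation by reactive gliosis, in which intermediate filament proteins and a set of surface and secreted proteins become more abundant. Gfap, Vim and Nes encode the intermediate filament proteins glial fibrillary acidic protein, vimentin and nestin, and nestin is best known from neural stem cells. Cd44 encodes a receptor for hyaluronan, S1pr3 a receptor for sphingosine 1-phosphate, Cd109 a lipid-anchored surface protein that binds transforming growth factor beta, and Emp1 a membrane-spanning epithelial membrane protein. Steap4 encodes a membrane metalloreductase for iron and copper, Serpina3n a secreted inhibitor of serine proteases, and Lcn2 a secreted lipocalin that binds iron-carrying siderophores. In mouse studies of reactive astrocytes, Cd109 and Emp1 were assigned to a set first described after ischaemia, and most of the others to a set shared by several kinds of injury. STAT3 signalling is a known driver of astrocyte reactivity, and STAT factors bind a palindrome of TTC and GAA.

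By RefSeq (GRCm38.p6, the build called mm10), the members lie on 8 chromosomes. The filament genes Gfap, Vim and Nes span chr11:102887336-102897200, chr2:13574311-13582826 and chr3:87971093-87980451. The surface protein genes Cd44, S1pr3, Cd109, Emp1 and Steap4 span chr2:102811141-102901669, chr13:51408618-51422797, chr9:78615546-78716260, chr6:135362550-135383173 and chr5:7960472-7982213. The secreted protein genes Serpina3n and Lcn2 span chr12:104406646-104414334 and chr2:32384637-32387739. RefSeq promoter windows (250 bases before to 50 after a start) were found for 9 of the 10, as 10 windows, and not for Cd109. Each window was searched on both strands for TTCNNNGAA (STAT), TGANTCA (AP-1), TGACGTCA (CRE) and the NF-kB motif. The windows of Gfap (chr11:102897151-102897450, minus strand), Emp1 (chr6:135362681-135362980, plus strand, inside the annotated gene) and Steap4 (chr5:7960222-7960521, plus strand) are shown because they were the ones with a match. Capitals mark the STAT and AP-1 matches.
Gfap: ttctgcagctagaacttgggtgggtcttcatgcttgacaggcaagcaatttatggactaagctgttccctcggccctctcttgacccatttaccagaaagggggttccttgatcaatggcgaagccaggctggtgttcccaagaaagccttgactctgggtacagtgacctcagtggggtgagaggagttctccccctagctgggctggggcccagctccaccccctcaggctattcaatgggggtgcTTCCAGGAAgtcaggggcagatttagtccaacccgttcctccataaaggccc
Emp1: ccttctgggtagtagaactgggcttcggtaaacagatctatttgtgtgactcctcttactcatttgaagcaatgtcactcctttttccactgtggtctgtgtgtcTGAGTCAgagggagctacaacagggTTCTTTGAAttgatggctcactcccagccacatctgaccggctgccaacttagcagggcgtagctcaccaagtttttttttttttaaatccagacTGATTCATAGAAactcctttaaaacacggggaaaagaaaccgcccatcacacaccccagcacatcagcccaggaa
Steap4: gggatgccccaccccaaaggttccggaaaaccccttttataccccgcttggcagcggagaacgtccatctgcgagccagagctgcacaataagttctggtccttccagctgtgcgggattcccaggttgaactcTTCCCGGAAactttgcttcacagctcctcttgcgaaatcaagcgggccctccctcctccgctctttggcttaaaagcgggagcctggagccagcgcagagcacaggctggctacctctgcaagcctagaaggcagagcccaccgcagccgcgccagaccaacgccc
The Gfap window held TTCCAGGAA, whose first base lay at position -2, so that the match spans the start. The Emp1 window held STAT matches at -120 and -22 and AP-1 matches at -145 and -25, and the matches at -25 and -22 share bases. The Steap4 window held TTCCCGGAA at -116. The STAT letters were found in 3 of the 10 windows of members, against 8.3% of all 32851 promoter windows, and the AP-1 letters in 1, against 7.81% of all windows. The CRE and NF-kB motifs were in none of these windows and in 1.79% and 0.411% of all. A match describes the letters of a window and is not a binding site.

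Count totals ran from 7436442 to 25520050 per library, and levels are given as CPM after TMM scaling of the library totals. Scn1a, the targeted gene, was lower in every Scn1a+/- library than in every wild-type library of its own age and strain except in P24 129S6, where libraries labelled Scn1a+/- had 135 to 144 CPM and those labelled wild type 109 to 111 CPM. Their 6 files are named for the reverse genotype, and of the columns of the authors' deposited table, the 6 of P24 129S6 were proportional to counts of a library with the other genotype label. Groups follow the titles here, and each genotype direction in P24 129S6 is as labelled and turns round under the genotype of the file names. Hippocampal neuron markers were tested and measured in full (11 of 11). Their summed levels were 2457 to 3288 CPM in the seizure libraries, 2251 to 2469 CPM in P24 F1 Scn1a+/- without seizures and 2459 to 2712 CPM in P24 F1 wild type. Slc17a7 made up most of these sums, with means of 1952, 1429 and 1557 CPM in the same order. In the seizure group against wild type, 3 of the 11 were called higher, Slc17a7 among them, and 4 lower. In bulk tissue, fewer cells of a type and less RNA per cell cannot be told apart.

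At P24, hippocampi of F1 Scn1a+/- mice with seizures had more RNA of 7 of the 9 tested members than wild type: Cd44, Emp1, S1pr3, Gfap, Vim, Serpina3n and Nes. In that comparison 12.4% of all 15912 tested genes were called higher and 10.1% lower (edgeR quasi-likelihood test, Benjamini-Hochberg adjusted p under 0.05). The median log2 fold change of the 9 members was 2.12, against 0.01 over all tested genes. All 7 were higher in every seizure library than in every wild-type library, as were 15.7% of all tested genes. Because the members were chosen with earlier results of these data known, setting them against all genes is a description and not a test.

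Gfap was the most abundant member. It stood at 3367, 3029 and 2356 CPM in the seizure libraries, at 749 and 861 CPM in P24 F1 Scn1a+/- without seizures, and at 546, 624 and 590 CPM in wild type. All 3 seizure libraries lay far above the rest, and none of the 22 libraries outside the seizure group exceeded 908 CPM. The log2 fold change of the seizure group over wild type was 2.31 ± 0.10 (SE, edgeR adjusted p = 5.24e-17), a 4.97-fold difference. Vim, its partner in the filament network, had 185, 198 and 172 CPM in the seizure libraries, 51.1 and 45.4 CPM in the other Scn1a+/- libraries, and 44.0, 43.1 and 40.1 CPM in wild type. The seizure libraries varied little among themselves, with the highest 1.15 times the lowest, and the log2 fold change over wild type was 2.12 ± 0.08 (edgeR adjusted p = 5.65e-19).

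Nes, the third filament gene, gave a smaller and less even difference. It had 14.1, 26.6 and 21.0 CPM in the seizure libraries, 14.5 and 13.0 CPM in the other Scn1a+/- libraries, and 13.1, 13.0 and 13.0 CPM in wild type. Seizure replicate 1 thus lay 1.08 times above the wild-type mean and inside the range of the other Scn1a+/- libraries, while replicates 2 and 3 lay 2.04 and 1.61 times above the wild-type mean. The log2 fold change over wild type was 0.65 ± 0.13 (edgeR adjusted p = 0.000384). It was not called when the fit held only the libraries of these groups (log2 fold change 0.65, edgeR adjusted p = 0.0556).

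Among the surface genes, Cd44 had the largest fold change of the members. It had 26.6, 49.6 and 31.0 CPM in the seizure libraries, 4.42 and 4.39 CPM in the other Scn1a+/- libraries, and 3.78, 3.41 and 3.76 CPM in wild type. Each seizure library was 7.29 to 13.6 times above the wild-type mean, and the log2 fold change was 3.29 ± 0.18 (edgeR adjusted p = 9.17e-15). S1pr3 had 31.3, 53.5 and 42.0 CPM in the seizure libraries, 9.27 and 8.16 CPM in the other Scn1a+/- libraries, and 7.30, 7.95 and 8.34 CPM in wild type. Its groups did not overlap, and the log2 fold change over wild type was 2.42 ± 0.14 (edgeR adjusted p = 1.95e-14).

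Emp1 varied most between the seizure libraries among the called members, with the highest 2.47 times the lowest. It had 14.6, 26.5 and 10.8 CPM in the seizure libraries, 2.94 and 2.94 CPM in the other Scn1a+/- libraries, and 2.76, 2.57 and 3.16 CPM in wild type. Even the lowest seizure library was 3.8 times above the wild-type mean, and the log2 fold change was 2.61 ± 0.23 (edgeR adjusted p = 1.66e-10). Cd109 had 10.2, 9.56 and 13.1 CPM in the seizure libraries, 7.97 and 6.88 CPM in the other Scn1a+/- libraries, and 9.75, 8.12 and 8.43 CPM in wild type. The seizure and wild-type libraries of Cd109 overlapped, and its log2 fold change of 0.32 ± 0.15 did not pass (edgeR adjusted p = 0.129).

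Serpina3n, the secreted protease inhibitor, had 271, 227 and 291 CPM in the seizure libraries, 114 and 98.4 CPM in the other Scn1a+/- libraries, and 116, 105 and 107 CPM in wild type. Its log2 fold change over wild type was 1.27 ± 0.08 (edgeR adjusted p = 1.28e-13), a 2.4-fold difference with no overlap. Serpina3n belongs to a cluster of near-identical genes on chromosome 12, and reads of these paralogs may be split or lost in counting, so its level is uncertain to that extent. Of 10 paralogs, 5 were tested and 4 were higher in the seizure group than in wild type: Serpina3m at 7.17 against 3.28 CPM (log2 fold change 1.13 ± 0.17, edgeR adjusted p = 6.28e-06), Serpina3g at 2.31 against 0.757 CPM, Serpina3f at 3.88 against 2.03 CPM and Serpina3c at 2.05 against 1.04 CPM. Serpina3h had a log2 fold change of 1.46 ± 0.54 and missed the threshold (edgeR adjusted p = 0.0504). Serpina3a and Serpina3k had 0 counts in every library, and Serpina3b, Serpina3i and Serpina3j had 2, 43 and 1 counts over all libraries. The summed level of the 10 paralogs was 15.5 to 17.2 CPM in the seizure libraries and 6.86 to 7.79 CPM in wild type.

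Steap4 and Lcn2 were close to the detection limit in every group. Steap4 had 4, 13 and 10 counts in the seizure libraries, 3 and 2 in the other Scn1a+/- libraries, and 2, 6 and 11 in wild type, which overlapped. Its log2 fold change over wild type was 0.62 ± 0.59 (edgeR adjusted p = 0.496). Lcn2 had 5, 7 and 10 counts in the seizure libraries, 0 and 0 in the other Scn1a+/- libraries, and 4, 8 and 5 in wild type. A count of 0 over both of those Scn1a+/- libraries allows a level of up to 0.102 CPM on unscaled totals (3 counts over the group, counting error only). The seizure group's level on the same scale, 0.35 CPM from 22 counts, was 3.43 times that limit. The counting error of the 22 counts and the spread between libraries are not in this ratio, so it is no lower bound. Tested without the low-count filter, Lcn2 had an edgeR adjusted p of 0.725 for the seizure group against wild type and of 0.0221 against the other Scn1a+/- group. The highest Lcn2 level of the series, 1.39 CPM, was in a P14 129S6 wild-type library.

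**Figure D1:**
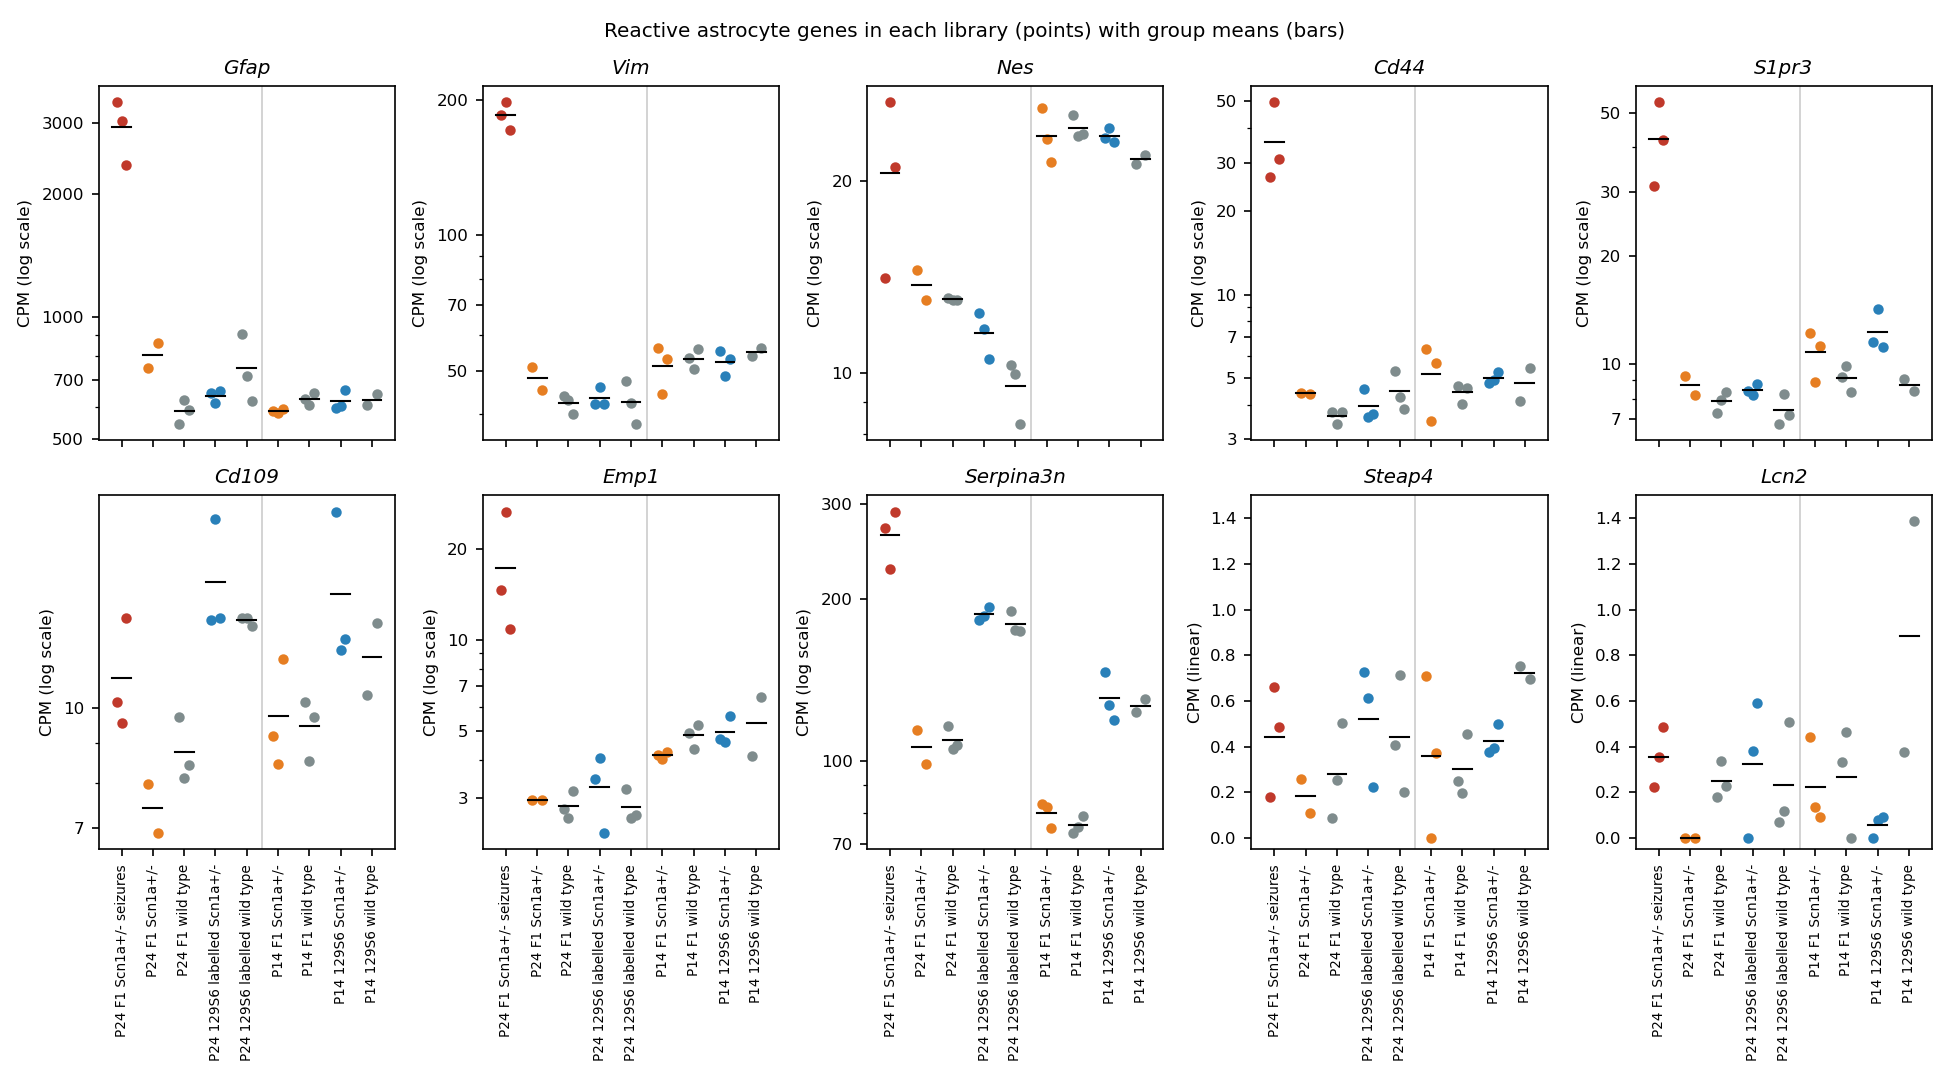
Level of each of the 10 genes in each of the 25 libraries, in CPM, on a log scale except for Steap4 and Lcn2. Points are libraries, bars are group means, and the grey line divides P24 from P14. The seizure libraries stand apart for Gfap, Vim, Cd44, S1pr3, Emp1 and Serpina3n, while for Nes they spread over 14.1 to 26.6 CPM, with the P14 libraries at 21.3 to 26 CPM.

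The highest of the 3 seizure libraries was replicate 2 for 5 of the 8 tested members other than Steap4 (Vim, Nes, Cd44, S1pr3 and Emp1), replicate 3 for Serpina3n and Cd109, and replicate 1 for Gfap. The members thus did not share 1 order of the seizure libraries. Per kilobase of exon (union lengths of GENCODE vM39), levels in the seizure group ran from Gfap at 511 CPM per kb, Serpina3n at 67.3 and Vim at 38.8, through S1pr3 at 8.66, Cd44 at 5.28, Nes at 3.21 and Emp1 at 2.92, to Cd109 at 1.56, Lcn2 at 0.136 and Steap4 at 0.123 CPM per kb. In P24 F1 wild type on the same scale, Gfap stood at 103, Serpina3n at 28 and Vim at 8.92, Nes at 2.03, S1pr3 at 1.61, Cd109 at 1.25, Cd44 at 0.539 and Emp1 at 0.477 CPM per kb. Cd44 and Emp1 were below Nes and Cd109 in wild type, and Cd44 was above both in the seizure group.

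The comparison of the seizure group with P24 F1 Scn1a+/- mice without seizures keeps the genotype constant, and shares the seizure libraries with the comparison above. There 8 of 9 tested members were higher, with a background of 8.72% of tested genes called higher and 7.00% lower. Log2 fold changes were 3.02 ± 0.22 for Cd44, 2.55 ± 0.28 for Emp1, 2.29 ± 0.17 for S1pr3, 1.94 ± 0.10 for Vim, 1.86 ± 0.12 for Gfap and 1.31 ± 0.09 for Serpina3n, with no overlap between the libraries (largest edgeR adjusted p = 4.62e-08, for Emp1). Of all tested genes, 16.0% were likewise higher in every seizure library than in every library of that Scn1a+/- group. Nes had 0.58 ± 0.16 (edgeR adjusted p = 0.00879) with overlapping libraries, and Cd109 had 0.57 ± 0.18 (edgeR adjusted p = 0.03) without overlap. Neither passed with certain single libraries left out. Nes had 0.35 (edgeR adjusted p = 0.0838) without seizure replicate 2 and 0.50 (adjusted p = 0.152) without Scn1a+/- replicate 2. Cd109 had 0.41 (edgeR adjusted p = 0.127) without seizure replicate 3, 0.65 (adjusted p = 0.0696) without Scn1a+/- replicate 1 and 0.45 (adjusted p = 0.288) without Scn1a+/- replicate 2. Leaving out either of those Scn1a+/- libraries leaves 1 in the group, which is then assumed to vary like the other groups. With only these 5 libraries in the fit, 6 of 9 members were called, and Nes (adjusted p = 0.189) and Cd109 (0.161) were not.

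Against the younger P14 F1 Scn1a+/- libraries, 6 of 9 members were higher in the P24 seizure group, where 15.9% of tested genes were called higher and 14.7% lower. This comparison mixes age with seizures. Log2 fold changes were 2.75 ± 0.19 for Cd44, 2.31 ± 0.11 for Gfap, 2.05 ± 0.24 for Emp1, 1.95 ± 0.15 for S1pr3, 1.84 ± 0.08 for Vim and 1.72 ± 0.08 for Serpina3n. Nes had 20.6 ± 6.3 CPM (SD, n = 3) in the seizure group and 23.6 ± 2.3 CPM (n = 3) in the P14 libraries, a log2 difference of -0.20 ± 0.14 (edgeR adjusted p = 0.279). Without seizure replicate 2, Nes was called lower there (-0.43, edgeR adjusted p = 0.00881). Of the 22 libraries outside the seizure group, 12 had at least as much Nes as the lowest seizure library, and 0 of 22 did for Gfap, Vim, Cd44, S1pr3, Emp1 or Serpina3n. How many of all tested genes likewise stood apart from all 22 was not counted, so this only describes the members.

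**Figure D2:**
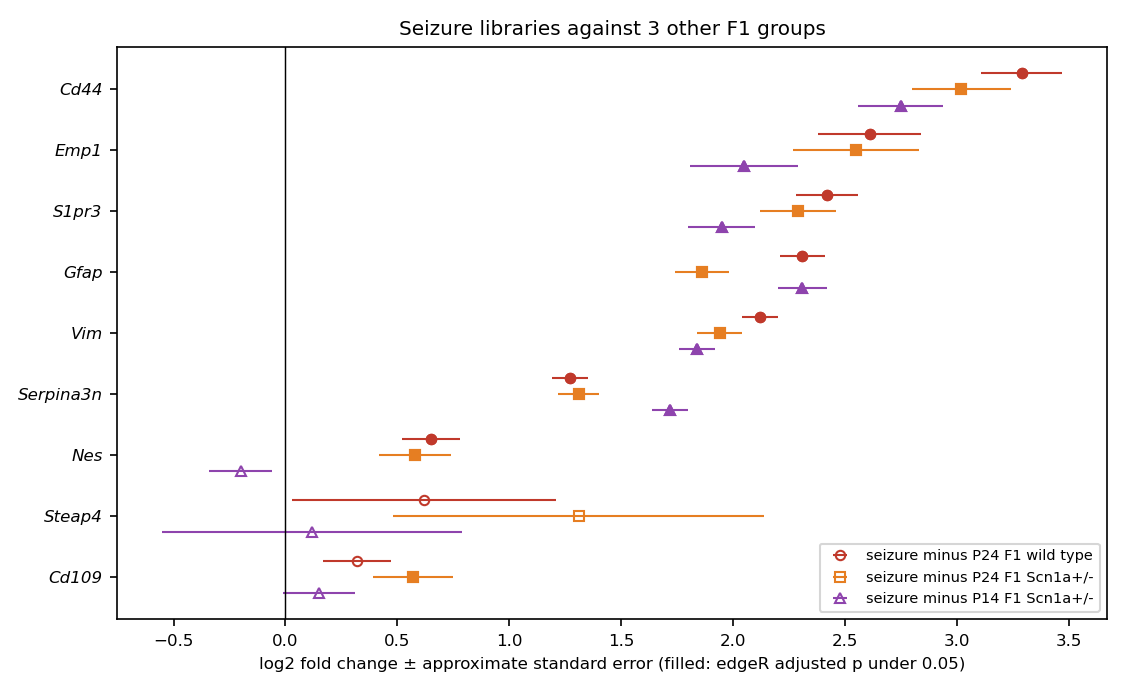
Log2 fold change of the seizure group over P24 F1 wild type (circles), P24 F1 Scn1a+/- (squares) and P14 F1 Scn1a+/- (triangles), with approximate standard errors and filled symbols for an edgeR adjusted p under 0.05. Cd44 is at 3.29, 3.02 and 2.75, while Nes is at 0.65 and 0.58 against the P24 groups and at -0.20 against P14.

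The other genes reported to mark reactive astrocytes moved unevenly in the seizure group against wild type. In this comparison 12.4% of all tested genes were called higher and 10.1% lower, the background for this and the following lists. Of the ischaemia-associated genes other than Cd109 and Emp1, 9 of 9 tested were higher and the median log2 fold change was 1.81. They included the pentraxin Ptx3 at 17.5 ± 10.8 against 1.4 ± 0.211 CPM (SD, n = 3 each), the annexin partner S100a10 at 60.9 against 14.6 CPM, the prostaglandin synthase Ptgs2 at 81.4 against 23.2 CPM and Tm4sf1 at 30.4 against 12.2 CPM. In bulk tissue, which cells carried the RNA of these genes cannot be told, so the list is not a reading of astrocytes alone. Of 11 endotoxin-associated genes tested, 2 were higher (the glycosyltransferase Ggta1 with a log2 fold change of 0.81 ± 0.17 and the interferon-induced GTPase Gbp2 with 1.18 ± 0.30), and 1 was lower (Iigp1, another such GTPase, with -0.96 ± 0.28). The median of that list was 0.18, and its counts were near the share over all tested genes. Of 5 other tested genes of the shared set, 4 were higher and 1 was lower: the metalloproteinase inhibitor Timp1 at 14.5 ± 2.33 against 1.1 ± 0.25 CPM, the small heat shock protein gene Hspb1 at 5.49 against 1.05 CPM, the oncostatin M receptor gene Osmr at 18.1 against 6.79 CPM and Aspg at 18.1 against 5.95 CPM were higher, and ceruloplasmin (Cp) was lower at 10.8 against 14.2 CPM. Against P24 F1 Scn1a+/- without seizures, 4 of these 5 were higher and 0 lower, with Cp at -0.08 ± 0.17 (edgeR adjusted p = 0.813).

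Partners of the members were mixed. Of 12 other filament, lamin and linker genes, 5 were higher and 1 lower: lamin A (Lmna, log2 fold change 0.57 ± 0.10) and the neurofilament genes Nefm (0.66 ± 0.11) and Nefl (0.39 ± 0.10) were among the higher, and Synm, whose product synemin joins glial filaments, was lower (-0.39 ± 0.08). Of 15 genes of hyaluronan turnover and Cd44 binding, 5 were higher and 3 lower. Moesin (Msn), which links Cd44 to actin, had 75 ± 4.75 CPM in the seizure group against 27.6 ± 1.84 CPM in wild type, and ezrin (Ezr) had a log2 fold change of 0.36 ± 0.08. The hyaluronan synthase gene Has2 was higher at 3.82 against 1.02 CPM, while the synthase gene Has3 was lower at 6.52 against 9.18 CPM. The hyaluronan-degrading Cemip was lower at 40.4 against 55.8 CPM, while Tmem2, listed with it for breakdown, was higher at 38.8 against 27.6 CPM. Of 10 genes of sphingosine 1-phosphate signalling, 3 were higher and 3 lower. The kinase gene Sphk1, also an ischaemia-associated gene, had 5.25 against 1.51 CPM and the lyase gene Sgpl1 a log2 fold change of 0.35 ± 0.08, while S1pr1, the abundant receptor of this family in astrocytes, had 127 against 160 CPM and the phosphatase gene Sgpp2 had 3.3 against 6.62 CPM. S1pr3 and S1pr1 thus changed in opposite directions.

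Of 10 tested genes of iron handling, 3 were higher and 0 lower, with small differences: the ferritin genes Ftl1 (log2 fold change 0.33 ± 0.10) and Fth1 (0.31 ± 0.10) and the transferrin receptor gene Tfrc (0.24 ± 0.08). Among the relatives of Emp1, Emp2 was higher (0.25 ± 0.08, edgeR adjusted p = 0.0278), Emp3 had 0.65 ± 0.31 (adjusted p = 0.133) and Pmp22 had 0.07 ± 0.10 (adjusted p = 0.671). Against P24 F1 Scn1a+/- without seizures, 0 of the 10 iron genes and 0 of these 3 relatives were called. Emp2 had -0.06 ± 0.10 there (edgeR adjusted p = 0.774).

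**Figure D3:**
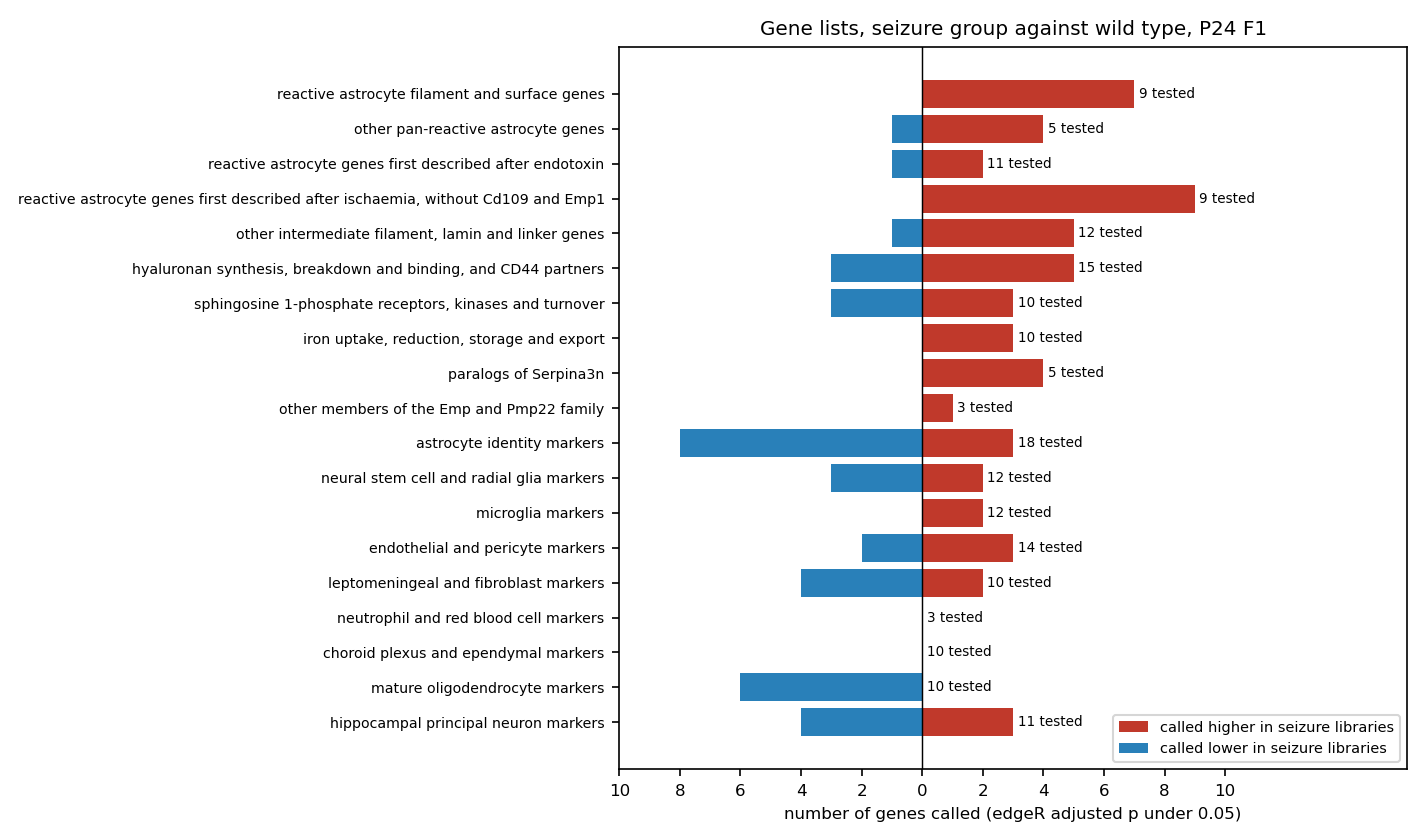
Number of genes called higher (red, to the right) and lower (blue, to the left) in the seizure group against P24 F1 wild type in each gene list, with the number tested at the right of each bar. The 9 ischaemia-associated genes were all called higher, and 8 of 18 astrocyte identity markers were called lower.

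Astrocyte identity markers were mixed and did not follow Gfap as a list. Of 18 such genes, 3 were higher and 8 lower in the seizure group than in wild type, with a median log2 fold change of -0.16. The 3 higher were Aqp4, the astrocyte water channel (380 against 193 CPM), Aldh1l1 (84.6 against 62.2 CPM) and Sox9 (39.8 against 27.8 CPM). Among the lower were glutamine synthetase (Glul, 851 against 1269 CPM) and the connexin genes Gjb6 (60.4 against 87.1 CPM) and Gja1 (227 against 299 CPM). Their summed level was 8807 to 10037 CPM in the seizure libraries, 11043 to 11914 CPM in P24 F1 Scn1a+/- without seizures and 10388 to 11251 CPM in wild type. Gfap amounted to 25.4% to 38.2% of that sum in the seizure libraries and to 4.8% to 8.41% in the 22 other libraries. Of these markers 0 of 18 were at 0 in any P24 F1 group.

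**Figure D4:**
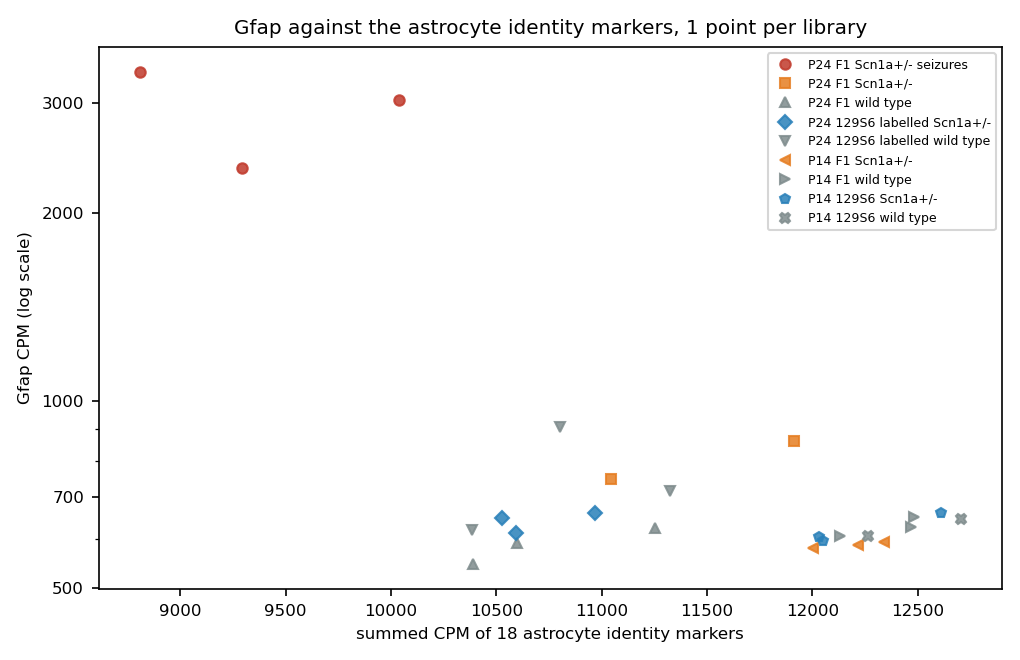
Gfap level (CPM, log scale) against the summed level of 18 astrocyte identity markers (CPM), with 1 point per library and symbols for the 9 groups. The 3 seizure libraries lie at the top left, with 2356 to 3367 CPM of Gfap and marker sums of 8807 to 10037 CPM.

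Some members are also expressed by other cell types, whose markers were read beside them. Of 12 stem cell and radial glia markers, 2 were higher and 3 lower in the seizure group than in wild type (Fabp7 higher at 110 against 56.8 CPM, Prom1 lower at 23.4 against 36.3 CPM, Emx2 lower with a log2 fold change of -0.33 ± 0.10 and Thbs4 lower with -0.46 ± 0.15). Their sum was 373 to 514 CPM in the seizure libraries, 427 to 479 CPM in the other Scn1a+/- libraries and 396 to 413 CPM in wild type. Of 12 microglia markers, 2 were higher (Olfml3, 0.82 ± 0.15, and Fcrls, 0.43 ± 0.11) and 0 lower, and their sum was 417 to 537 CPM in the seizure libraries and 447 to 479 CPM in wild type. Of 14 endothelial and pericyte markers, 3 were higher (Kdr, 0.63 ± 0.17, Cldn5, 0.32 ± 0.10, and Rgs5, 0.31 ± 0.07) and 2 lower, Slco1a4 (-0.38 ± 0.09) among them, with sums of 307 to 368 CPM and 335 to 349 CPM in the same 2 groups. Against P24 F1 Scn1a+/- without seizures, 0 of these 14 were higher and 1 was lower. None of the 12 stem cell, 12 microglia and 14 vascular markers was at 0 in these groups, and their part in the members' levels was not tested.

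Of 10 leptomeningeal and fibroblast markers, 2 were higher and 4 lower. The collagen gene Col3a1 was higher (19.2 against 7.37 CPM), while Slc6a13 (2.6 against 5.96 CPM), Igf2 (47.1 against 80.9 CPM) and Ogn (4.51 against 8.75 CPM) were lower, and the sum was 126 to 150 CPM in the seizure libraries and 158 to 170 CPM in wild type. Neutrophil and red cell genes were read because neutrophils also make Lcn2. Of the 12 present, 3 were tested and 0 called by edgeR (S100a9 had 1.34 ± 0.50 on the log2 scale with an adjusted p of 0.0504, and Alas2 had -0.30 ± 0.17 with an adjusted p of 0.22). S100a9 averaged 0.712 CPM in the seizure group and 0.277 CPM in wild type. The red cell gene Alas2 averaged 6.17 CPM in the seizure group and 7.58 CPM in wild type and made up most of the list's sum, which was 5.46 to 9.35 CPM in the seizure libraries and 7.26 to 10 CPM in wild type. The globin genes Hba-a1, Hbb-bs and Hbb-b1 had 0 counts in all 25 libraries and so say nothing of blood content, and Elane had 7 counts over all libraries. Of 10 choroid plexus and ependymal markers, 0 were called (Aqp1 had -0.53 ± 0.24 on the log2 scale with an edgeR adjusted p of 0.115, and Enkur had -0.29 ± 0.22), with sums of 450 to 939 CPM and 632 to 743 CPM. Ttr made up most of those sums. Of 10 oligodendrocyte markers, 0 were higher and 6 lower, Cnp (-0.40 ± 0.09), Mal (-0.42 ± 0.10), Mag (-0.38 ± 0.10) and Mog (-0.37 ± 0.10) among them. Their sum was 10371 to 16434 CPM in the seizure libraries and 14328 to 16524 CPM in wild type, which overlapped. Compared with P24 F1 Scn1a+/- without seizures, 3 of the 10 were lower and 0 higher. Of 11 hippocampal neuron markers, 3 were higher and 4 lower, with the CA1 and dentate genes Fibcd1 (70.8 against 148 CPM), Dsp (30.9 against 84.7 CPM) and Calb1 (102 against 144 CPM) lower and C1ql2 higher (67.5 against 43.7 CPM).

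Without seizures, Scn1a+/- and wild-type hippocampi were not distinguished for any member by the test with all libraries in the fit. In each of the 4 comparisons, edgeR called 0 of 9 members and 0% of tested genes in either direction, and DESeq2 also called 0 genes. At an unadjusted p under 0.05 there were 1 of 9 members in P24 F1, 1 in P24 129S6, 0 in P14 F1 and 1 in P14 129S6, and 889, 471, 724 and 391 of all tested genes in the same order.

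The P24 F1 member was Gfap, whose 2 Scn1a+/- libraries (749 and 861 CPM) lay above all 3 wild-type libraries (546, 624 and 590 CPM). The log2 fold change was 0.46 ± 0.11, a 1.37-fold difference (edgeR adjusted p = 0.833). The result depended on the fit, and Gfap had an edgeR adjusted p of 0.00559 with the seizure libraries left out of the model and of 0.0033 with no low-count filter, and of 0.76 to 1 with single libraries left out. Vim had 0.18 ± 0.09 (edgeR adjusted p = 0.833) and Serpina3n -0.04 ± 0.09 (adjusted p = 0.957). Between the same groups, the choroid plexus and ependymal sum was 443 to 510 CPM in Scn1a+/- and 632 to 743 CPM in wild type, and the leptomeningeal sum 135 to 145 CPM and 158 to 170 CPM. Ttr made up most of the former sum, with means of 414 and 609 CPM. Of the ependymal genes, Foxj1 had 11.3 and 11.8 CPM and Ccdc153 5.25 and 4.71 CPM. The stem cell and radial glia sum was 427 to 479 CPM in Scn1a+/- and 396 to 413 CPM in wild type, and the microglia sum 503 to 529 CPM and 447 to 479 CPM. The part of these lists in the Gfap value was not tested.

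In P24 129S6, Gfap had 649, 614 and 659 CPM in the libraries labelled Scn1a+/- and 908, 716 and 621 CPM in those labelled wild type. The log2 fold change was -0.22 ± 0.10 as labelled (edgeR adjusted p = 1), and under the file names it has the other sign, the sign seen in P24 F1. The 908 CPM of labelled wild-type replicate 1 was the highest value outside the seizure group. In the authors' deposited table, whose own column names give the genotype, the log2 ratio of Scn1a+/- over wild type was 0.23 for Gfap and -0.34 for Scn1a. In P14 129S6, S1pr3 had 11.5, 14.2 and 11.1 CPM in Scn1a+/- and 9.04 and 8.41 CPM in wild type, which did not overlap (0.48 ± 0.18, edgeR adjusted p = 1). In P14 F1, S1pr3 had 0.26 ± 0.17 (edgeR adjusted p = 0.994) and Gfap -0.10 ± 0.10 (adjusted p = 0.994).

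Ordered by mean level, Gfap stood at 2917 ± 515 CPM in the seizure group (SD, n = 3), 805 ± 79.5 in P24 F1 Scn1a+/- without seizures (n = 2), 748 ± 147 in labelled wild-type P24 129S6 (n = 3), 641 ± 23.3 in labelled Scn1a+/- P24 129S6 (n = 3) and between 586 and 628 CPM in the remaining 5 groups. Below the seizure group, each pair of neighbours in that order differed by less than the larger of their SDs. By file name, the labelled wild-type P24 129S6 libraries are Scn1a+/- and the labelled Scn1a+/- ones are wild type.

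Age was compared between P24 and P14 within each strain, without the seizure group. Nes had the largest log2 difference of the members in F1. In F1 it had 14.5 and 13.0 CPM in Scn1a+/- and 13.1, 13.0 and 13.0 CPM in wild type at P24, against 26, 23.3 and 21.4 CPM in Scn1a+/- and 25.4, 23.5 and 23.7 CPM in wild type at P14. In 129S6 it had 12.4, 11.7 and 10.5 CPM in labelled Scn1a+/- and 10.3, 9.97 and 8.31 CPM in labelled wild type at P24, against 23.4, 24.2 and 23.0 CPM in Scn1a+/- and 21.3 and 22.0 CPM in wild type at P14. No P24 library outside the seizure group reached any P14 library, and the log2 differences were -0.84 ± 0.11 in F1 (edgeR adjusted p = 1.36e-07) and -1.10 ± 0.11 in 129S6 (adjusted p = 9.78e-10).

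Of 9 members tested in F1, 1 was higher and 3 lower at P24 than at P14, against a background of 19.0% of tested genes called higher and 19.4% lower, so that the members' count was near the share over all genes. Besides Nes, Emp1 (2.88 ± 0.223 CPM at P24, n = 5, against 4.49 ± 0.468 CPM at P14, n = 6; log2 difference -0.63 ± 0.21) and Vim (44.7 ± 4.05 against 52.2 ± 4.31 CPM; -0.21 ± 0.06) were lower. In 129S6, 1 was higher and 4 lower (background 17.3% higher and 17.1% lower), with Emp1 at -0.77 ± 0.20, Vim at -0.32 ± 0.06 and S1pr3 at -0.37 ± 0.12. Without P24 F1 Scn1a+/- replicate 2, Vim (-0.17, edgeR adjusted p = 0.0816) and Emp1 (-0.63, adjusted p = 0.0626) did not pass in F1. In 129S6, S1pr3 did not pass without P14 Scn1a+/- replicate 2 (-0.32, edgeR adjusted p = 0.0549) or wild-type replicate 1 (-0.35, adjusted p = 0.0703). Gfap had a log2 difference of 0.18 ± 0.08 in F1 (edgeR adjusted p = 0.0585) and of 0.15 ± 0.08 in 129S6 (adjusted p = 0.123). It was called in F1 with the seizure libraries left out of the fit (0.18, adjusted p = 0.00446), a fit that called 6 of 9 members and 7040 of all genes.

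Serpina3n was the member that was higher at P24 in both strains. In 129S6 it had 183, 186 and 193 CPM in labelled Scn1a+/- and 190, 175 and 174 CPM in labelled wild type at P24, against 146, 127 and 119 CPM in Scn1a+/- and 123 and 130 CPM in wild type at P14. In F1 it had 114 and 98.4 CPM in Scn1a+/- and 116, 105 and 107 CPM in wild type at P24, against 83.0, 82.1 and 74.9 CPM in Scn1a+/- and 73.2, 75.3 and 78.9 CPM in wild type at P14. The log2 age differences were 0.47 ± 0.06 in F1 (edgeR adjusted p = 3.11e-07) and 0.51 ± 0.06 in 129S6 (adjusted p = 4.39e-08). The difference between the strains in the effect of age was -0.04 ± 0.09 for Serpina3n and was not called for any member (0 of 9 by edgeR, with 1 of 9 at an unadjusted p under 0.05 and 0 by DESeq2; background 0.00628% called higher and 0% lower). That member was Cd109, with -0.38 ± 0.17 (edgeR adjusted p = 0.594).

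Marker lists also differed with age. Of 10 oligodendrocyte markers, 10 were higher at P24 in each strain, with median log2 differences of 1.4 in F1 and 1.39 in 129S6. Of 12 stem cell and radial glia markers, 5 were lower and 3 higher in F1 and 6 lower and 3 higher in 129S6, and their sum was 396 to 479 CPM in P24 F1 libraries without seizures against 506 to 530 CPM in P14 F1. Of 18 astrocyte markers, 7 were lower and 2 higher in F1, and 7 lower and 1 higher in 129S6. Of 14 endothelial and pericyte markers, 7 were lower and 2 higher at P24 in F1, and 9 lower and 2 higher in 129S6, with sums of 335 to 361 CPM in P24 F1 libraries without seizures against 412 to 446 CPM in P14 F1. Of 12 microglia markers, 5 were lower and 1 higher in F1, and 6 lower and 0 higher in 129S6. The part of these lists in the members' age differences was not tested.

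Strain separated 2 members. Serpina3n was lower in F1 than in 129S6 at P24 (108 ± 7.16 CPM, n = 5, against 183 ± 7.63 CPM in 129S6, n = 6) with a log2 difference of -0.77 ± 0.06 (edgeR adjusted p = 9.41e-11), and at P14 with -0.72 ± 0.06 (adjusted p = 5.53e-10). At neither age did the libraries of the strains overlap. Of its tested paralogs, Serpina3m was lower in F1 at P24 (-1.16, edgeR adjusted p = 6.36e-07) and P14 (-0.73, adjusted p = 0.0038), as was Serpina3f (-0.79 and -0.91, adjusted p = 0.0053 and 0.00591), and 0 of 5 were higher.

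Cd109 was lower in F1 at P24, with 7.97 and 6.88 CPM in Scn1a+/- and 9.75, 8.12 and 8.43 CPM in wild type, against 13.0, 17.6 and 13.1 CPM in labelled Scn1a+/- and 13.1, 13.1 and 12.8 CPM in labelled wild-type 129S6 libraries. Every F1 library lay below every 129S6 library, and the log2 difference was -0.78 ± 0.12 (edgeR adjusted p = 3.89e-05). At P14 it was -0.40 ± 0.12 and did not pass (adjusted p = 0.0632), though it did with the seizure libraries left out of the fit (-0.39, adjusted p = 0.0194). Nes had 0.34 ± 0.11 at P24 (adjusted p = 0.062), and passed with the seizure libraries left out (0.35, adjusted p = 0.00211). Of the 9 tested members, 2 were lower and 0 higher in F1 at P24, against 2.87% and 3.46% of all tested genes, and 1 was lower and 0 higher at P14, against 1.66% and 2.04%.

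**Figure D5:**
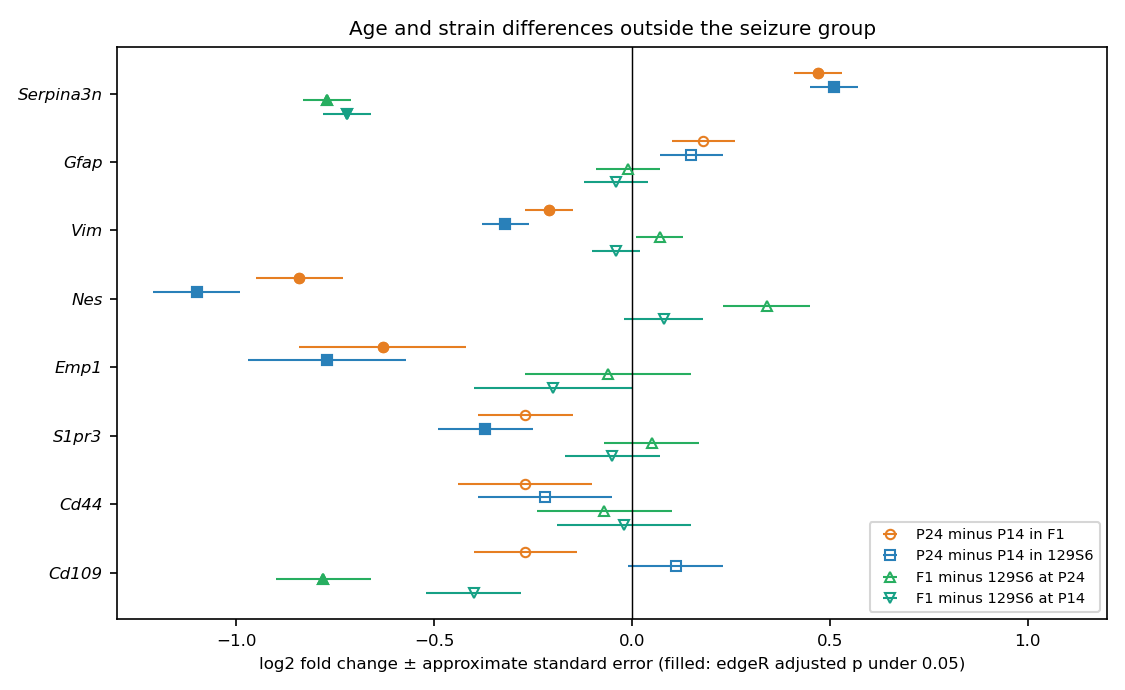
Log2 difference of P24 minus P14 in F1 (circles) and 129S6 (squares), and of F1 minus 129S6 at P24 (upward triangles) and P14 (downward triangles), with approximate standard errors and filled symbols for an edgeR adjusted p under 0.05, without the seizure libraries; Steap4 and Lcn2 are not drawn. Nes is at -0.84 and -1.10 for age, and Serpina3n at 0.47 and 0.51 for age and at -0.77 and -0.72 for strain.

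Leptomeningeal and fibroblast markers differed by strain as well. Of 10 such genes, 3 were lower in F1 at P24 and 5 at P14, and 0 were higher, with sums of 135 to 170 CPM in P24 F1 libraries without seizures against 190 to 224 CPM in P24 129S6. Of 12 microglia markers, 5 were higher in F1 at P24 and 3 at P14. Of 18 astrocyte markers, 1 was higher in F1 at P24 and 0 at P14. Their part in the strain differences of Serpina3n and Cd109 was not tested. Reads of both strains were aligned to mm10, and the part of sequence differences between the strains in the counts was not tested either.

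Outside the members, the genes most like Gfap over the 9 group means (log2 of CPM + 0.25) were Sprr1a with Pearson's r = 0.992, Olfm4 with 0.983, and Tesc, Serpinf2 and S100a6 with 0.982 each. With 1 group far above the rest, this likeness rests on the seizure group. Sprr1a had 3.97 CPM in the seizure group and 0.014 CPM in wild type, Serpinf2 had 10.1 and 0.858 CPM, and S100a6 had 58.9 and 13.4 CPM. Over the 22 libraries outside the seizure group, the genes most like Gfap were Bcas1 (r = 0.717), Pea15a (0.714), Qk (0.709), Ssfa2 (0.707) and Scd1 (0.705). In the seizure group, Bcas1 had 214 CPM against 235 CPM in wild type, and Scd1 309 against 299 CPM. The 22 libraries span 2 strains and 2 ages and differ in marker content, and these values are descriptions only.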

How the data were processed

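The members and gene lists were chosen with earlier results of these data known. Hippocampal RNA was extracted with TRIzol and made into libraries with TruSeq RNA Library Preparation Kit v2, which does not mark strand, per the labels' protocols, so reads of antisense or overlapping genes cannot be told apart. Tools in the submitters' processing notes are TopHat2 2.1.0, HTSeq 0.6.1p1 and CASAVA, and the build is mm10. The gene annotation and strand setting were not given in the sources used. The authors deposited raw gene counts per library (24421 symbols, 0 lines naming no gene) and a table of normalized signal values, used for a few ratios and to match each column to a count file (tolerance 0.1%).

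The edgeR 4.0.16 quasi-likelihood model (R 4.3.3, limma 3.58.1) held a mean for each of the 9 groups and a dispersion per gene shared by all groups, with TMM scaling. Of all symbols, 15912 passed filterByExpr at a minimum count of 10. Residual degrees of freedom were 16, prior ones 15.5, and the biological coefficient of variation 7.57%. Calls needed a Benjamini-Hochberg adjusted p under 0.05 over all genes tested. Contrasts of strain and of age are means over both genotypes, without the seizure libraries. A standard error is the absolute log2 fold change divided by the root of F. The steps were tested on simulated data. Alternatives were RLE size factors, no low-count filter, DESeq2 1.42.0, fits with fewer groups and leaving out single libraries. Named were the members, their Serpina3 and Emp relatives, Scn1a, the genes most like Gfap and, per list, up to 4 called genes with the smallest p for the seizure group against wild type (else 2). Cp, Elane, Hba-a1, Hbb-bs, Hbb-b1, Aldh1l1, Sox9, Has3, Tmem2, Slc17a7, Ttr, Foxj1 and Ccdc153 were named after their values were seen. Sequences and promoter coordinates come from RefSeq (GRCm38.p6), exon lengths from GENCODE vM39 by symbol.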

Additional observations from a re-analysis of the deposited data

Results flagged for a closer look

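Gfap is given here because in F1 its Scn1a+/- and wild-type libraries were separated in opposite directions at P24 and P14. At P24 the Scn1a+/- libraries (749 and 861 CPM) lay above wild type (546, 624 and 590 CPM), and at P14 the Scn1a+/- libraries (587, 580 and 593 CPM) lay below wild type (627, 607 and 650 CPM). The difference of the 2 genotype effects, a contrast added after seeing the data, was 0.56 ± 0.15 on the log2 scale (edgeR adjusted p = 0.877 over all tested genes), and did not pass.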

How the results depend on the processing

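No paired analysis was possible because the titles number each library uniquely over the whole series, so that no number is shared between groups. With only the libraries of a comparison in the fit, edgeR called 1615 genes for the seizure group against wild type (3579 with all libraries), 633 against the other P24 Scn1a+/- group (2502) and 2613 against P14 Scn1a+/- (4869). For genotype, that setting called 3 genes in P24 F1, 2 in P24 129S6 and 1 in P14 F1. No low-count filter called 9, 3 and, in P14 129S6, 4 genes, and leaving out the seizure libraries 200 in P24 F1 (1 member, Gfap, as with no filter) and 2 in P24 129S6. For strain, these 2 smaller fits called 1051 and 991 genes at P14 and 1950 and 2104 at P24 (588 and 1008 with all libraries), and 2 members at P14, also with no filter. For age in F1 the contrast's own libraries gave 7 members and 7018 genes (4 and 6107 with all libraries), and the difference of age effects gave 42 genes in both smaller fits, 6 with no filter and 2 with DESeq2. Single libraries left out gave 1519 to 2964 genes for the seizure group against the other P24 Scn1a+/- group, 0 to 4 for genotype in P24 F1, 0 to 1 in P24 129S6, 380 to 543 (1 to 2 members) for strain at P14, 423 to 1360 at P24, 2 to 5 members for age in F1, and 1 to 3 genes for the difference of age effects. The lowest of these came without P24 F1 Scn1a+/- replicate 2 for the seizure comparison, strain at P24 and age in F1, and without P14 129S6 wild-type replicate 2 for strain at P14. Against P14 Scn1a+/-, the seizure group's log2 difference ranged over -0.43 to 0.01 for Nes and -0.01 to 0.30 for Cd109 with single libraries left out. The causes were not tested. Counts near 0 limit Lcn2 and Steap4.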
